A study of Mus musculus with 10 samples.

Results

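The microRNAs described here are mmu-miR-219a-5p, mmu-miR-219a-2-3p, mmu-miR-338-3p and mmu-miR-338-5p, 4 of the 1340 mature miRNAs in a small RNA table of the mouse RPE/choroid/sclera. They were chosen by name, as miRNAs of myelinating glia, and by their presence in that table, and the earlier values of these libraries were known when the choice was made. All 4 had a mean signal of at least 10 over the 10 libraries, as did 588 of the 1340 miRNAs. The samples are 5 right and 5 left eyes taken at postnatal day 34 from C57BL/6J mice of wild type genotype, and the sides share the title numbers 61, 64, 65, 66 and 68. Each mouse had carried a goggle with a lens of -20 dioptres before one eye for 10 days from postnatal day 24, a treatment that induces myopia, and the contralateral eye had none. The labels give the side of an eye but not which side wore the lens, so right against left is the comparison available and a lens effect that changed sides between animals would not show in it. They name the tissue as pigment epithelium, choroid and sclera, while the extraction protocol speaks of retinae. The labels do not tell whether numbers differ in litter or batch, and all p-values come from these 10 libraries alone. Those of right against left rest on how the side difference varied between the 5 numbers, moderated over all miRNAs or hairpins fitted.

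A miRNA hairpin is cut into a 5p and a 3p arm, either of which can be loaded into Argonaute, where bases 2 to 8, the seed, select target mRNAs. In the brain and optic nerve, miR-219 and miR-338 are known as miRNAs of differentiating oligodendrocytes, which repress Sox6, Hes5 and other genes that hold precursor cells in an undifferentiated state. In mice the optic nerve is myelinated only behind the eye wall. miR-338 is not limited to glia, since it lies in the neuronal gene Aatk and is also made in neurons and epithelia.

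The RefSeq sequences (GRCm38.p6) of 3 members and of the sister product miR-219a-1-3p are shown because they tell which products can be told apart, with the seed in capitals.
miR-219a-5p: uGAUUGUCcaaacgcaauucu
miR-219a-1-3p: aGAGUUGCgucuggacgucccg
miR-338-5p: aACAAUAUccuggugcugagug
miR-338-3p: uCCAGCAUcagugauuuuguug
None of the other distinct names among the 1679 mature miRNAs of that table has the seed of any of these. miR-219a-5p has 21 bases and is made from 2 hairpins, Mir219a-2 (chromosome 2, 29845631 to 29845727, minus strand) and Mir219a-1 (chromosome 17, 34024983 to 34025092, minus strand). Its single row in the deposited table carries the chromosome 2 position, so the share of each hairpin cannot be told apart, whereas the 3p arms differ in sequence and have rows of their own. Leaving out miRNA genes, Mir219a-2 overlaps no other gene in GENCODE M21 and lies 629 bases from Urm1. The miRNA gene Mir219b lies within it on the opposite strand. Mir219a-1 lies in an exon of the long noncoding RNA Gm26940. miR-219a-2-3p is the other member.

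Both arms of miR-338 come from 1 hairpin in an intron of Aatk, on the strand of the gene (chromosome 11, 120014765 to 120014862, minus strand). The hairpin of 98 bases is shown with the 5p and then the 3p arm in capitals, since the ratio of these arms is measured later.
Mir338: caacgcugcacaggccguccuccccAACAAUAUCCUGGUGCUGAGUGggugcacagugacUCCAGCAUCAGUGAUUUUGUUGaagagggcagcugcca
The opposite strand holds Mir3065, whose 5p product reads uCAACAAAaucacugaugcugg and is complementary to miR-338-3p over a run of 21 bases. That product had a signal of 0.222 to 3.63 in the 10 libraries, against 2373 to 3553 for miR-338-3p. miR-219c-3p, from the strand opposite Mir219a-1, is complementary to miR-219a-5p over 20 bases and had 0 to 5.95. miR-219b-3p, from the strand opposite Mir219a-2, is complementary to miR-219a-5p over 21 bases and has no row in the deposited table. miR-3065-5p and miR-219c-3p stayed under the minimum mean of 10 and were not tested.

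miR-338-3p, which in rodents promotes oligodendrocyte differentiation, was the highest of the 4 in every library. Its normalised signal was 2675, 2373, 3454, 3191 and 3303 in the right eyes of numbers 61, 64, 65, 66 and 68, against 2754, 2473, 2675, 2824 and 3553 in the left eyes in the same order. The 2 sides overlapped almost fully, and number 64 was low and number 68 high on both. It ranked between 106 and 123 among the miRNAs of a library. miR-338-5p, its partner arm, had 376, 317, 356, 311 and 287 in right eyes and 356, 341, 305, 415 and 376 in left eyes, in the same order of numbers. The sides overlapped here too, and right eye 68 was the lowest and left eye 66 the highest library.

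miR-219a-5p, the conserved 5p product of both miR-219a hairpins, had a low signal of 16.1, 24.4, 28.0, 22.4 and 18.2 in right eyes and 11.1, 20.8, 17.2, 29.9 and 21.9 in left eyes. Left eye 61 was lowest and left eye 66 highest. The partner miR-219a-2-3p had 28.0, 45.8, 53.1, 49.5 and 34.4 in right eyes, against 39.5, 57.5, 34.4, 501 and 28.7 in left eyes. In 9 libraries it lay between 28.0 and 57.5, and left eye 66 alone stood outside that range. The 3p arm of the other hairpin, miR-219a-1-3p, had 54.9, 54.9, 50.5, 32.3 and 25.9 in right eyes and 45.6, 52.8, 48.4, 28.7 and 35.4 in left eyes. In miR-219a-1-3p numbers 61, 64 and 65 were above numbers 66 and 68 on both sides.

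**Figure D1:**
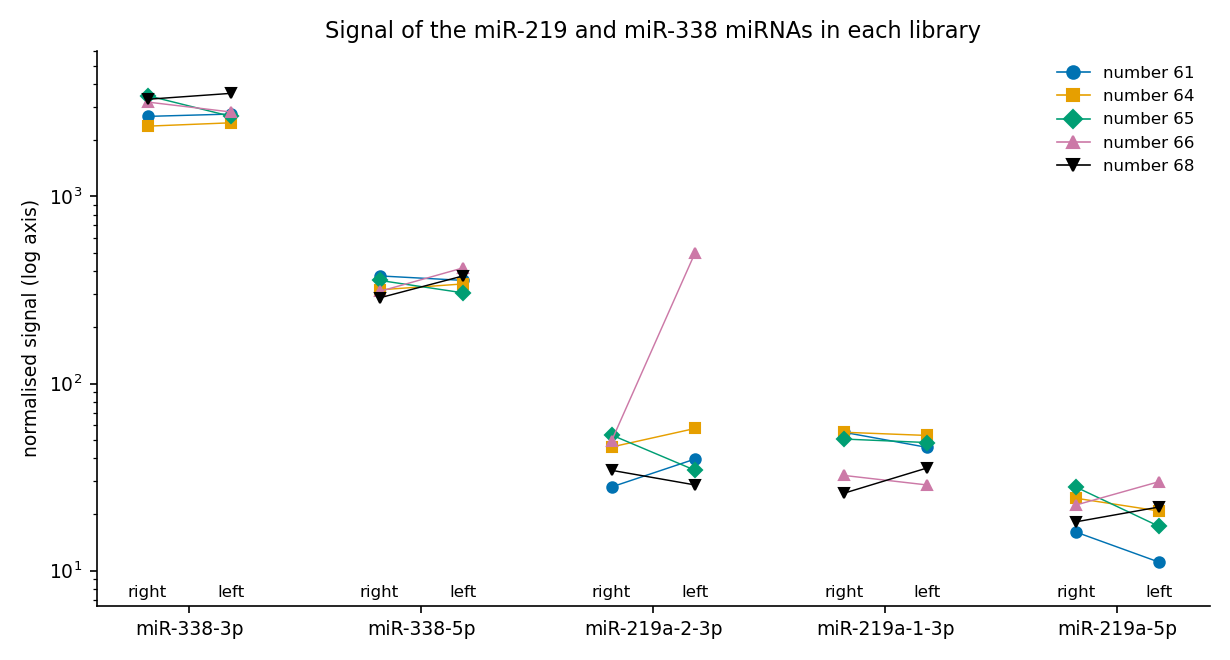
Normalised signal (log axis) of the 4 members and of miR-219a-1-3p in each library, right eyes at the left of each pair and left eyes at the right, with a line joining the eyes of a number. miR-338-3p lies between 2373 and 3553 and miR-338-5p between 287 and 415, and miR-219a-2-3p in left eye 66, at 501, is the 1 point far from its group.

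Ordered by level over the 10 libraries, miR-338-3p averaged 2927 ± 416 (SD, n = 10), miR-338-5p 344 ± 39.4, miR-219a-1-3p 42.9 ± 11.3 and miR-219a-5p 21.0 ± 5.64. For miR-219a-2-3p the mean of 87.1 ± 146 rests on left eye 66, and the other 9 libraries gave 41.2 ± 10.7. The ranges of miR-338-3p and miR-338-5p did not meet, and apart from miR-219a-2-3p in left eye 66 no miR-219a product reached the lowest miR-338-5p value. The 3 miR-219a products overlapped in range. Within a library miR-219a-5p was under miR-219a-2-3p in 10 of 10 and under miR-219a-1-3p in 9 of 10, while the 2 3p arms had no set order, with ratios of 0.510 to 1.53 outside left eye 66. Mature miRNAs are of nearly 1 length, so the signal was not divided by length, but ligation efficiency differs between sequences and was not tested. Together the 4 members held 0.0232% to 0.0335% of the signal of a library, and miR-338-3p alone made up 74.9% to 90.7% of that.

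How far the members rise and fall together was measured next. Likeness was measured over the 10 libraries by the proportionality coefficient of log2(signal + 1). The coefficient is 1 where the ratio of 2 miRNAs is the same in every library. It is near 0 where they are unrelated, but also where 1 of them varies far more than the other. A low coefficient therefore does not by itself show that 2 miRNAs are unrelated. Among the 6 pairs of members the coefficient ran from -0.040 for miR-219a-2-3p with miR-338-3p to 0.34 for miR-219a-5p with miR-219a-2-3p. With miR-219a-1-3p, the 3p arm of the other hairpin and not a member, miR-219a-5p had -0.21. miR-219a-5p and miR-338-3p, the best known myelin miRNAs of the group, had 0.17, and their log2 ratio had an SD of 0.41, as large as the 0.40 of miR-219a-5p by itself. Without left eye 66 the 6 coefficients ran from -0.17 to 0.44, and without right eye 68 from -0.023 to 0.34. The miR-338 arms varied little, and the arms of that 1 hairpin had only 0.031, so these coefficients do not tell whether the members share a cellular source. The source of the 4 miRNAs was not tested, and they are called by their names here. In bulk tissue fewer cells of a type and less of a miRNA per cell cannot be told apart.

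The right and left eyes were compared by limma with the shared number as a block, and none of the 4 members passed. None of the 588 miRNAs passed either (0%), with 13 at an unadjusted p under 0.05, none of them a member. miR-338-3p averaged 2999 ± 456 in right and 2856 ± 411 in left eyes (SD, n = 5 each), which is 0.07 on the log2 scale of right over left with SE 0.09 and limma adjusted p = 0.967. It was higher in 2 of 5 right eyes, and the 95% interval of the fold ran from 0.899 to 1.22 on the scale of signal + 1. miR-338-5p averaged 329 ± 35.9 in right and 358 ± 40.8 in left eyes, with a log2 fold change of -0.12, SE 0.12 and an interval of 0.749 to 1.13 in fold. miR-219a-5p averaged 21.8 ± 4.77 in right and 20.2 ± 6.87 in left eyes, with a log2 fold change of 0.15, SE 0.23 and an interval of 0.753 to 1.63. The limma adjusted p was 0.967 for each of these.

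miR-219a-2-3p had 42.1 ± 10.6 in right and 132 ± 206 in left eyes, giving a log2 fold change of -0.65 with SE 0.54 and limma adjusted p = 0.967. Without number 66 the means were 40.3 ± 11.2 in right and 40.0 ± 12.5 in left eyes (SD, n = 4 each) and the log2 fold change was 0.01. The whole difference between sides was thus that of number 66. No member was higher in all 5 right eyes or lower in all 5, where 2.04% and 0.85% of the 588 miRNAs were. The values of the sides overlapped for all 4 members, as for all but 0.17% of the 588. The members had a median log2 fold change of -0.03, against 0.02 for all 588. miR-219a-1-3p had a log2 fold change of 0.02 (limma adjusted p = 0.985).

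**Figure D2:**
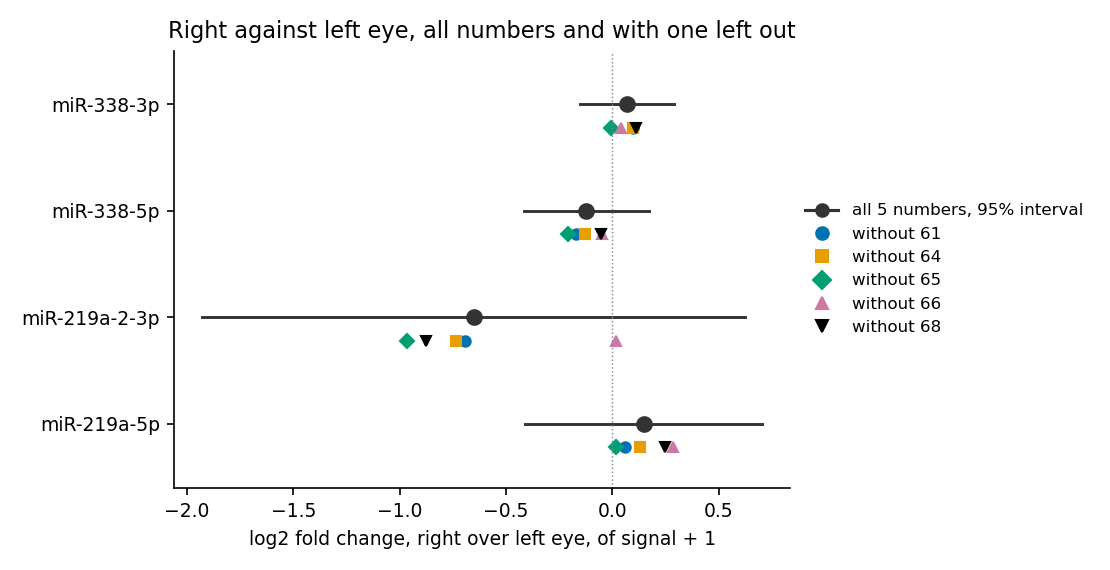
Log2 fold change of signal + 1, right over left eye, for the 4 members with the 95% interval of the limma fit on all 5 numbers (dark points and bars), and below each bar the value with each number left out. All intervals cross 0, and miR-219a-2-3p moves from -0.65 to 0.01 without number 66.

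The signal of miR-219a-2-3p in left eye 66, at 501, was 8.70 times the next library, left eye 64 with 57.5. It was 12.7 times the median of the other 9 libraries and 10.1 times right eye 66. Of the 588 miRNAs, 2 had a highest library at least 3 times the next (0.34%), and miR-219a-2-3p was first and the photoreceptor miR-96-5p, at 4.16 times in right eye 68, came next. Of the 20 miRNAs whose highest library was at least 2 times the next, 18 had it in right eye 68 and 1, miR-219a-2-3p, in left eye 66. The median ratio over all 588 was 1.09.

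No other product of these hairpins made a jump of like size in left eye 66. miR-219a-5p was highest there as well, but at 29.9 only 1.07 times the next library, and miR-338-5p at 415 was 1.10 times the next. miR-338-3p, at 2824, was 1.03 times the median of the other 9. miR-219a-1-3p was low there, at 28.7, and the ratio of miR-219a-2-3p to miR-219a-1-3p was 17.4 in that library and 0.510 to 1.53 in the other 9. Among the cell type lists, the summed signal of 4 surface epithelium miRNAs was highest in left eye 66, at 21084, or 1.99 times the median of the other 9. The summed signals of 6 neuron and 4 striated muscle miRNAs were lowest there, at 17717 and 25906, and that of 3 photoreceptor miRNAs had place 5 among the 10 libraries. The neuron sum was close to the 18271 of left eye 64, and miR-9-5p made up 13129 of it in left eye 66. None of the 6 neuron miRNAs had its own lowest value in left eye 66. For the surface epithelium list, left eye 64 came next at 18932, and miR-205-5p made up 16083 of the sum in left eye 66. In that list miR-205-5p and miR-200b-3p were highest in left eye 66, but miR-200c-3p and miR-203-3p were highest in left eye 64. The part of any of these lists in the value of 501 was not tested.

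**Figure D3:**
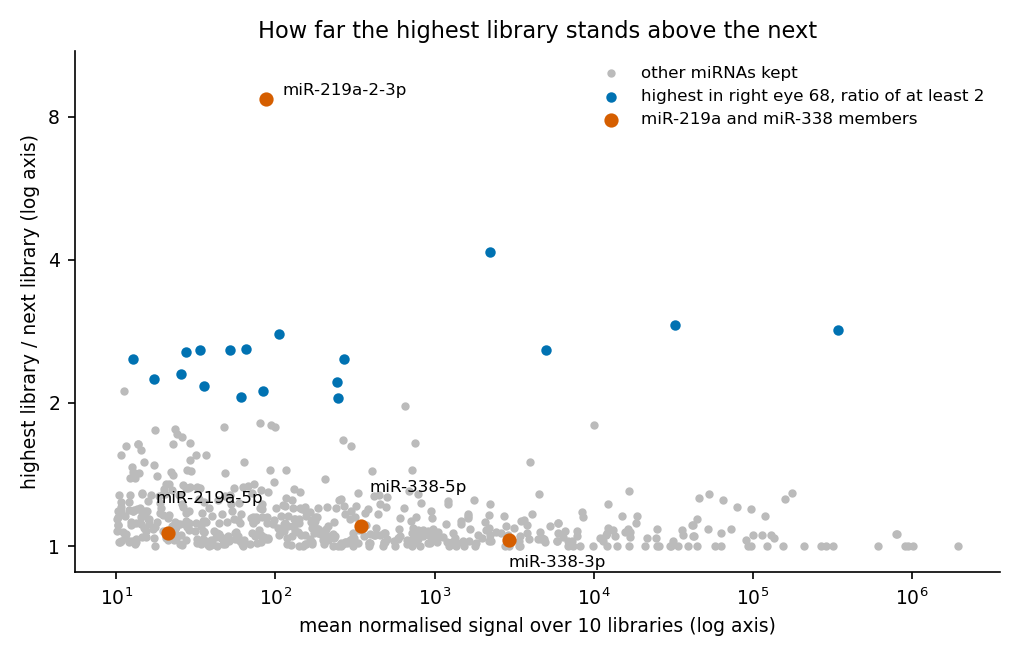
Highest library divided by the next library (log axis) against the mean normalised signal (log axis) for the 588 miRNAs, with the 4 members in orange and the miRNAs that stand out in right eye 68 in blue. miR-219a-2-3p, at 8.70, lies above every other point, and the other 3 members lie between 1.03 and 1.10.

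Right eye 68 had the highest summed signal of photoreceptor and of neuron miRNAs, at 4.73 and 2.52 times the median of the other 9 libraries, and the members did not stand out in it. There miR-124-3p, the neuronal miRNA, had 19089, 6.60 times the median of the other 9 libraries, and the photoreceptor miRNAs miR-96-5p and miR-183-5p had 8.27 and 6.70 times theirs. Against the same medians, miR-338-3p was at 1.20 times, miR-219a-5p at 0.832, miR-338-5p at 0.807 and miR-219a-2-3p at 0.750. miR-338-5p had its lowest value in that library. The proportionality of miR-124-3p with the members lay between -0.19 and -0.03. Without number 68 the log2 fold change of miR-338-3p was 0.11.

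The 3p arm was the higher one of both hairpins in all 10 libraries. miR-338-3p over miR-338-5p was 7.12, 7.49, 9.71, 10.3 and 11.5 in right eyes, against 7.74, 7.26, 8.77, 6.81 and 9.45 in left eyes, in the order 61, 64, 65, 66 and 68. Right eyes averaged 9.22 ± 1.87 and left eyes 8.01 ± 1.09 (SD, n = 5 each), and the log2 ratio of 5p to 3p differed by -0.19 with SE 0.14 and limma adjusted p = 0.909. miR-219a-2-3p over miR-219a-5p was 1.74 to 2.21 in right eyes, and in left eyes 3.56, 2.76, 1.99, 16.7 and 1.31. The difference in log2 ratio of 5p to 3p was 0.80 with SE 0.46 and limma adjusted p = 0.757, and 0.27 without number 66. None of the 191 hairpins with both arms passed (0%), with 5 at an unadjusted p under 0.05 and 79 in which the 3p arm was higher. Several of these hairpins share an arm, as those of miR-219a do.

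The 2 arms of miR-338 had a proportionality of 0.031, a value that 39.3% of the 191 hairpins fell below. The median of the hairpins was 0.18. The ratio itself varied little, since only 20.9% of the hairpins had a smaller SD of the log2 ratio. That SD was 0.26 for miR-338, larger than the 0.20 of miR-338-3p and the 0.16 of miR-338-5p. In rank, 42 hairpins had a higher ratio of 3p to 5p than miR-338.

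**Figure D4:**
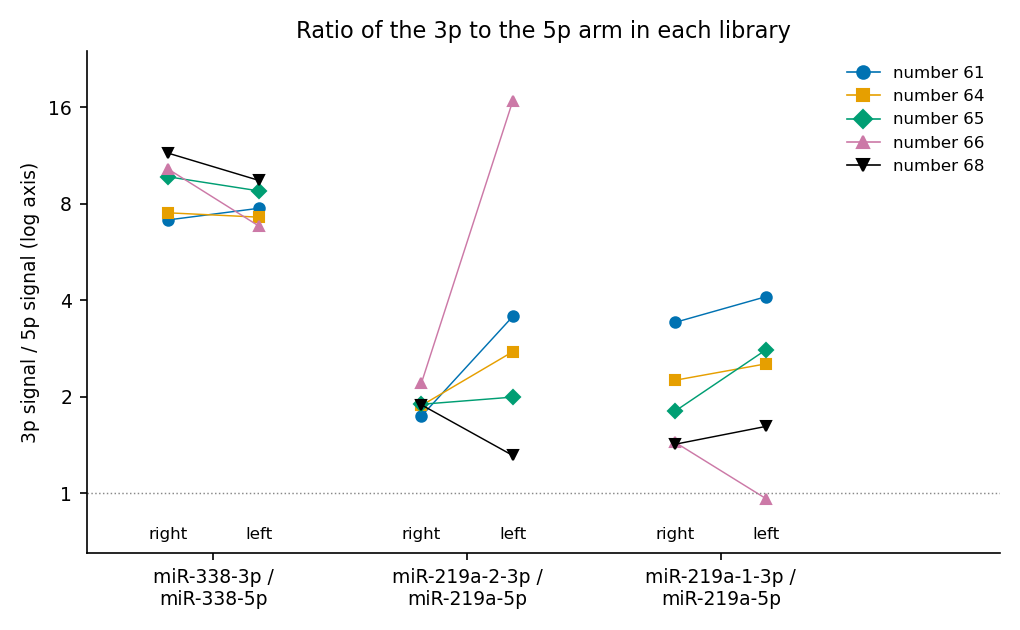
Signal of the 3p arm divided by that of the 5p arm (log axis) in each library for miR-338, miR-219a-2 and miR-219a-1, right eyes at the left of each pair, with a line joining the eyes of a number. miR-338 lies between 6.81 and 11.5, and left eye 66 reaches 16.7 for miR-219a-2 and falls to 0.960 for miR-219a-1, the 1 value under 1.

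Whether a member follows the number of the mouse was asked by an exact one-sided permutation over the 120 pairings of left with right libraries, which can give no p under 0.00833. miR-338-3p came nearest, with a mean absolute log2 difference of 0.16 between eyes of a number, against 0.23 over all pairings (exact p = 0.117, adjusted over the 588 miRNAs 0.402). Its mean of both eyes was 2423 in number 64 and 3428 in number 68, while the 2 eyes of a number lay 78.6 to 778 apart. The exact permutation p was 0.25 for miR-219a-2-3p, 0.358 for miR-219a-5p and 0.90 for miR-338-5p. An unadjusted p under 0.05 was found for 0 of the 4 members and for 13.6% of the 588 miRNAs, and none of the 588 passed after adjustment (lowest adjusted p = 0.251). Without number 65 the unadjusted exact permutation p of miR-338-3p was 0.0417, the smallest that 4 numbers can give (adjusted p = 0.445). miR-219a-1-3p had exact permutation p = 0.0833, with means of 49.4 to 53.8 in numbers 61, 64 and 65 and of 30.5 and 30.6 in numbers 66 and 68.

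By the rule for likeness, miR-338-3p was nearest to let-7g-5p, with a proportionality of 0.98, then miR-365-3p (0.94), miR-30e-5p (0.90), miR-411-5p (0.89) and miR-152-5p (0.89). let-7g-5p had 194838, 179294, 251975, 225576 and 225576 in right eyes and 194838, 179294, 194838, 194838 and 251975 in left eyes. As in miR-338-3p, number 64 was lowest on both sides and right eye 65 and left eye 68 were the highest. Of 584 other miRNAs, 22 reached 0.8 with miR-338-3p and 117 reached 0.5. All are values of the same 10 libraries after 1 normalisation, and high ranks share steps, so these are descriptions without a test.

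Among the fixed cell type lists, the proportionality of miR-338-3p ran from 0.66 to 0.81 over the 3 leukocyte miRNAs and was 0.57 and 0.64 with the 2 red cell miRNAs. With the endothelial miR-126a-3p and miR-126a-5p it was 0.46 and 0.72. The 4 smooth muscle and fibroblast miRNAs were split, with 0.73 for miR-143-3p and 0.71 for miR-199a-3p, but 0.10 for miR-214-3p and -0.35 for miR-145a-5p. Of the 5 neuron miRNAs kept, miR-9-5p had 0.65 and miR-9-3p 0.59, while miR-128-3p had 0.19, miR-129-5p -0.02 and miR-124-3p -0.03. The 3 photoreceptor miRNAs lay between -0.01 and 0.05, the 4 striated muscle miRNAs between 0.14 and 0.28, and the 4 surface epithelium miRNAs between -0.40 and -0.21. With miR-211-5p of the pigment epithelium it was 0.012. The SD of log2(signal + 1) was 0.20 for miR-338-3p and 0.16 to 0.34 for the leukocyte miRNAs. It was 0.81 to 1.06 for the photoreceptor and 0.56 to 1.02 for the striated muscle miRNAs. So large a difference in SD keeps the coefficient low even for miRNAs that rise and fall together. The lists therefore cannot be ranked against each other by these values. In the surface epithelium list the SD was 0.88 to 1.09 except for miR-203-3p. That miRNA had an SD of 0.27, within the range of the leukocyte miRNAs, and the lowest coefficient of its list, -0.40. miR-219a-5p was nearest to miR-33-3p (0.70), miR-582-3p (0.63), miR-676-5p (0.58), miR-7075-3p (0.58) and miR-1298-5p (0.58). No miRNA reached 0.8 with miR-219a-5p, and 13 reached 0.5.

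**Figure D5:**
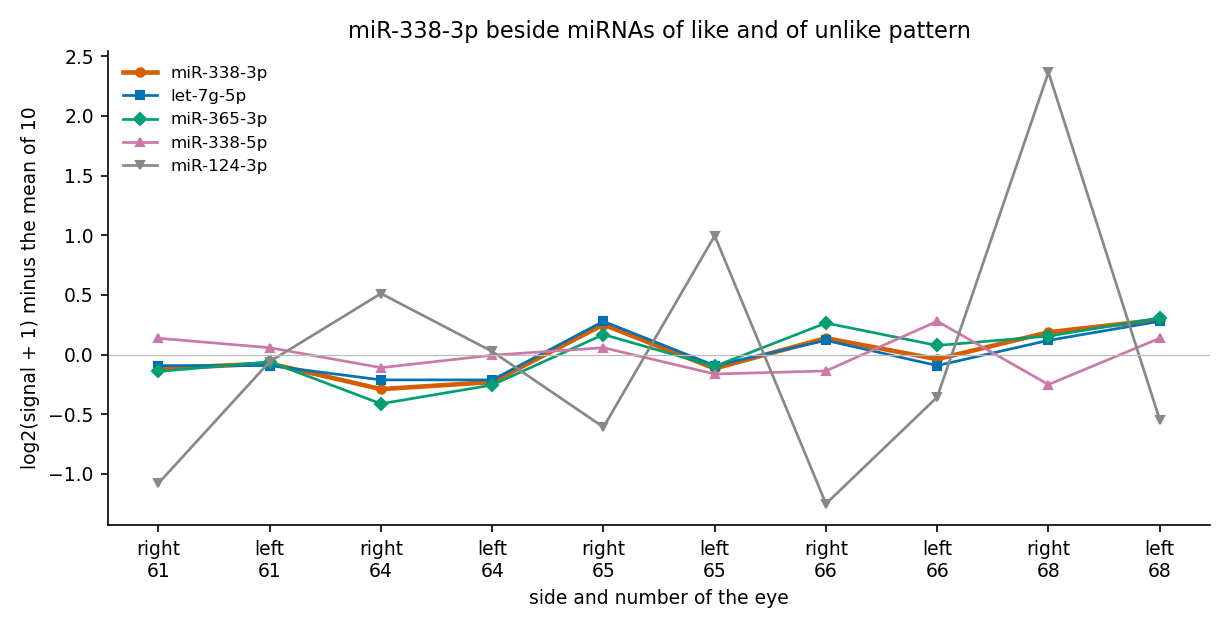
Log2(signal + 1) of each library minus the mean over 10 libraries, for miR-338-3p, its nearest miRNAs let-7g-5p and miR-365-3p, its own 5p arm and miR-124-3p. The first 3 lines run together, miR-338-5p does not follow them, and miR-124-3p has its peak in right eye 68.

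Other miRNAs known from the oligodendrocyte lineage in rodents were taken from a list of 13, of which 12 were in the table and tested. None passed in limma, 6 had a higher mean in right eyes, and the median log2 fold change was 0.0013, against 0.019 for all 588. miR-23a-3p, which represses lamin B1 in mouse oligodendrocytes, had 13129, 10593, 13581, 15268 and 11952 in right eyes, against 11521, 9430, 11521, 11952 and 13992 in left eyes, and a proportionality of 0.76 with miR-338-3p. miR-138-5p, known from early oligodendrocyte differentiation and also from neurons, had 513 to 1250 in right and 700.5 to 761 in left eyes, with the highest value in right eye 68. miR-7a-5p, known from oligodendrocyte precursors, was likewise highest in right eye 68, at 37.4 or 1.93 times the median of the other 9 libraries. The miR-17 to miR-92 cluster, which drives precursor proliferation in mice, was represented by 4 products. Its proportionality with miR-338-3p was 0.74 for miR-19b-3p, -0.12 for miR-20a-5p, -0.63 for miR-17-5p and -0.74 for miR-92a-3p. Over all 12 tested the median was -0.08, and 7 of the 12 were below 0. Most of this list is made in many other cell types as well.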

How the data were processed

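Small RNA of 10 RPE/choroid/sclera libraries was sequenced with the TruSeq small RNA kit, per the labels' protocols. The submitters' processing notes name Bowtie, Partek and the builds GRCm38 and mm10, without versions. The deposited normalised signal per mature miRNA is the authors' own, by a method not given in the sources used here. Library sums are 11878200 to 11879000 to 6 digits, and high ranks share steps between libraries, the form that quantile normalisation leaves. Only 7.31% of the values above 0 are whole within 0.001, so depth is unknown, no counting interval is given and count models were not used.

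Values were analysed as log2(signal + 1) for miRNAs with a mean of at least 10. Such fold changes understate those of low miRNAs. Right and left eyes were compared in R 4.3.3 with limma 3.58.1, two-sided, with a mean-variance trend (none for arm ratios), Benjamini-Hochberg adjustment at 0.05 and the title number as a block, since the protocol sets treated against contralateral eyes. That a number is a mouse is read from the titles, and deviations of same-numbered eyes correlated across miRNAs at 0.12, 0.45, 0.013, -0.13 and 0.28, which by itself does not establish the pairing. Members and lists were chosen with earlier results of these data known. Named miRNAs are the members, sister products, list members and the 5 nearest to miR-219a-5p and to miR-338-3p. Code was tested on simulated data. Alternatives were the pseudocount, the filter, library centring, no trend, no block, no centring on the side, and leaving out each number. Sequences are RefSeq's and 3 of the 4 members matched. Genes are from GENCODE M21.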

Additional observations from a re-analysis of the deposited data

Results flagged for a closer look

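On the log2 scale, 1 of 14 checks of an eye against the other 4 of its side found a library apart. It was miR-219a-2-3p in left eye 66, with a signal of 501, where the gap to the next left eye took 0.76 of the range of left eyes and 0.710 is the critical value for 5 samples. Chance gives about 1 in 20 in each single check for independent values, and 14 checks were made. The checks covered the 4 members, the arm ratios of miR-338 and miR-219a-2 and the summed members on each side, which overlap in content. The part of any cause in this value was not tested.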

How the results depend on the processing

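The number of miRNAs called between sides was 0 in all 12 alternatives for miRNAs and all 9 for arm ratios. Without the replicate block the log2 fold change of miR-219a-2-3p was -0.65 with SE 0.66 and that of miR-338-3p 0.07 with SE 0.14, and no call of a member changed. With 1 number left out, the log2 fold change ran from -0.97 to 0.015 for miR-219a-2-3p, where it turned without number 66. It ran from -0.0075 to 0.11 for miR-338-3p, where it turned without number 65, and kept its direction for the other members. In the test of likeness between eyes of a number, the exact permutation p of miR-219a-2-3p ran from 0.167 to 0.50. That of miR-219a-5p ran from 0.208 to 1.0, and neither fell under 0.05. For miR-338-3p it ran from 0.0417 to 0.417, with the lowest value without number 65, and for miR-338-5p from 0.833 to 1.0. The share of miRNAs at an unadjusted p under 0.05 in that test ran from 3.06% to 6.63% with 1 number left out. It was 13.6% with all 5 numbers, so that share depended on having every number. The smallest p that 4 numbers allow, 0.0417, still counts as under 0.05, and the reason for the fall was not tested. With libraries centred on their medians miR-338-3p had an unadjusted exact permutation p of 0.0333 there, against 0.117. miR-219a-5p and miR-219a-2-3p were left out by a minimum mean of 100. Depth is unknown, and rank steps can hide small differences.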
